A study of Homo sapiens with 12 samples.

Results

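The carcinoembryonic antigen-related cell adhesion molecules (CEACAM) are cell surface glycoproteins of the immunoglobulin superfamily that bind one another, or copies of themselves, across neighboring cells. CEACAM1 spans the membrane and carries, in its long isoforms, a cytoplasmic tail with inhibitory tyrosine motifs. CEACAM5, the tumor marker known as carcinoembryonic antigen, CEACAM6 and CEACAM7 are held in the membrane by a glycosylphosphatidylinositol (GPI) anchor and lack a tail. CEACAM5 and CEACAM6 are known to be abundant in many adenocarcinomas, including those of the pancreas, whereas CEACAM7 is best known from the normal colon. CEACAM19 is a transmembrane member that has been studied less. The rows for these 5 genes were taken by gene name from a table of 58302 genes, and each name gave 1 row.

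RNA was sequenced from BxPC-3 and CFPAC-1, both established human pancreatic ductal adenocarcinoma lines, and from BxPC-3-GR and CFPAC-1-GR, their derivatives resistant to the nucleoside analog gemcitabine (GEM), which had been grown in stepwise higher doses of the drug. Each of the 4 lines had 3 libraries, 12 in all, from cells in culture without a host tissue. The last GEM concentration was higher for BxPC-3-GR than for CFPAC-1-GR, and each resistant line is 1 selected population, so that a change shared by its 3 libraries may belong to that population. The labels call the morphology of BxPC-3-GR mesenchymal and that of the other lines epithelial, and give 1 medium for all lines where the study's methods give another for CFPAC-1. Nothing states that the 3 libraries of a line came from separate cultures, so p-values measure only the spread between these libraries.

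All 5 genes lie on the long arm of chromosome 19 (GRCh38). CEACAM7 (ENSG00000007306; chr19:41673307-41706976, minus strand), CEACAM5 (ENSG00000105388; chr19:41708585-41729798, plus strand) and CEACAM6 (ENSG00000086548; chr19:41750977-41772208, plus strand) are neighbors. CEACAM1 (ENSG00000079385; chr19:42507304-42561234, minus strand) and CEACAM19 (ENSG00000186567; chr19:44662278-44684359, plus strand) lie farther along. The RefSeq promoter table held 4 of the 5 genes, all but CEACAM19. To show how alike the genes that differed in response are just before their start sites, the 30 bases from 60 to 31 before the RefSeq start (GRCh38.p14) are given below, 5′ to 3′ on the strand of the gene. Capitals mark an E box (CACGTG, the same on both strands, a motif bound by the factors USF1 and USF2) or a GC box (GGGCGG on either strand, bound by SP1 and SP3).
CEACAM5, chr19:41708566-41708595, plus strand: ccacacccatgaccCACGTGatgctgagaa
CEACAM6, chr19:41755470-41755499, plus strand: accgcacccatgaccCACGTGaccctggga
CEACAM7, chr19:41688301-41688330, minus strand: gaccccacccctggaccatgtgatcttgga
CEACAM1, chr19:42528512-42528541, minus strand: gacaaaccCCGCCCcagcacacatgatcag

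CEACAM5 and CEACAM6 held the E box in this stretch, beginning 46 and 45 bases before the start, and CEACAM1 held the GC box, beginning 52 bases before it. Of 35116 RefSeq promoter windows of 300 bases (250 before to 50 after a start), 7.26% held the E box and 45% the GC box somewhere, and 1.23% and 14.6% held them in the 30 bases shown. Over the 250 bases before the start, identity was 80.5% between CEACAM5 and CEACAM7, 79% between CEACAM6 and CEACAM7 and 73.6% between CEACAM5 and CEACAM6. CEACAM1 was 63.5% to 70% identical to the other three. By GENCODE 29, all 30 of these bases lie in an exon of the gene itself for CEACAM6 and CEACAM7, 11 do for CEACAM5 and 0 for CEACAM1. A match of letters is a description of the window and not a measured binding site.

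The deposited values were FPKM, read fragments relative to the length of a gene and to the depth of its library. The scaling by length allows levels of different genes to be set side by side. The steps between low values put the depth at about 12600000 to 25100000 mapped fragments per library. Of 8 epithelial marker genes, 7 had a mean of at least 1 FPKM in BxPC-3 and all 8 in the other lines, including BxPC-3-GR. Their summed level ran from 1135 to 1234 FPKM in BxPC-3, from 1458 to 1548 in BxPC-3-GR, from 2743 to 3017 in CFPAC-1 and from 1305 to 1529 in CFPAC-1-GR, so that it was lower in CFPAC-1-GR together with CEACAM5 and CEACAM6 but not lower in BxPC-3-GR. PTPRC, the pan-leukocyte marker, was listed at 0 in every library, while the 6 leukocyte markers together ran from 3.21 to 4.45 FPKM in BxPC-3, from 1.65 to 2.02 in BxPC-3-GR, from 38.6 to 48.5 in CFPAC-1 and from 15.1 to 18.2 in CFPAC-1-GR. The part of these markers in the results was not tested. The 6 granulocyte markers together did not exceed 0.239 FPKM in any library, nor the 4 endothelial markers 0.911 FPKM. Of 8 fibroblast and mesenchymal markers, VIM and COL1A1 alone were high enough to be tested, COL1A1 in CFPAC-1-GR only. VIM, which encodes the intermediate filament vimentin, fell in both resistant lines, from 6.59 ± 0.937 to 0.813 ± 0.111 FPKM in BxPC-3-GR, the line labelled mesenchymal, and from 126 ± 18.1 to 57.9 ± 9.41 FPKM in CFPAC-1-GR (means ± SD, n = 3, as throughout). COL1A1, a collagen gene, moved the other way in mean, from 0.727 ± 0.0561 to 1.09 ± 0.125 FPKM in BxPC-3-GR, where it was not tested, and from 1.49 ± 0.204 to 3.02 ± 0.322 FPKM in CFPAC-1-GR (log2FC 0.69, adjusted p = 0.00042 by limma). With a correction for GC content and length, 1 of these 2 markers passed the study's criteria as higher and 1 as lower in CFPAC-1-GR.

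CEACAM6 was the most abundant of the 5 genes in every library. In such bulk RNA, fewer cells that express a gene and less of its RNA per cell cannot be told apart. CEACAM6 made up 80.7% ± 0.644 of the summed FPKM of the 5 genes in BxPC-3, 95.7% ± 0.278 in CFPAC-1 and 94.7% ± 0.917 in CFPAC-1-GR, but 48.0% ± 0.630 in BxPC-3-GR, where CEACAM5 made up 44.5% ± 0.0333. The summed level was 85.6 ± 4.18 FPKM in BxPC-3, 19.7 ± 2.61 in BxPC-3-GR, 372 ± 25.2 in CFPAC-1 and 193 ± 28.05 in CFPAC-1-GR. The other CEACAM genes were hardly detected. CEACAM18 was listed at 0 in all 12 libraries, and CEACAM3, CEACAM4, CEACAM16 and CEACAM20 were at 0 in most libraries and never above 0.0875 FPKM. CEACAM8, known from granulocytes, was at 0 in both BxPC-3 lines, at 0.177 ± 0.0406 FPKM in CFPAC-1 and at 0.0197 ± 0.00332 FPKM in CFPAC-1-GR. CEACAM21 was likewise at 0 in both BxPC-3 lines, at 0.172 ± 0.0476 FPKM in CFPAC-1 and at 0.171 ± 0.0762 FPKM in CFPAC-1-GR.

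**Figure D1:**
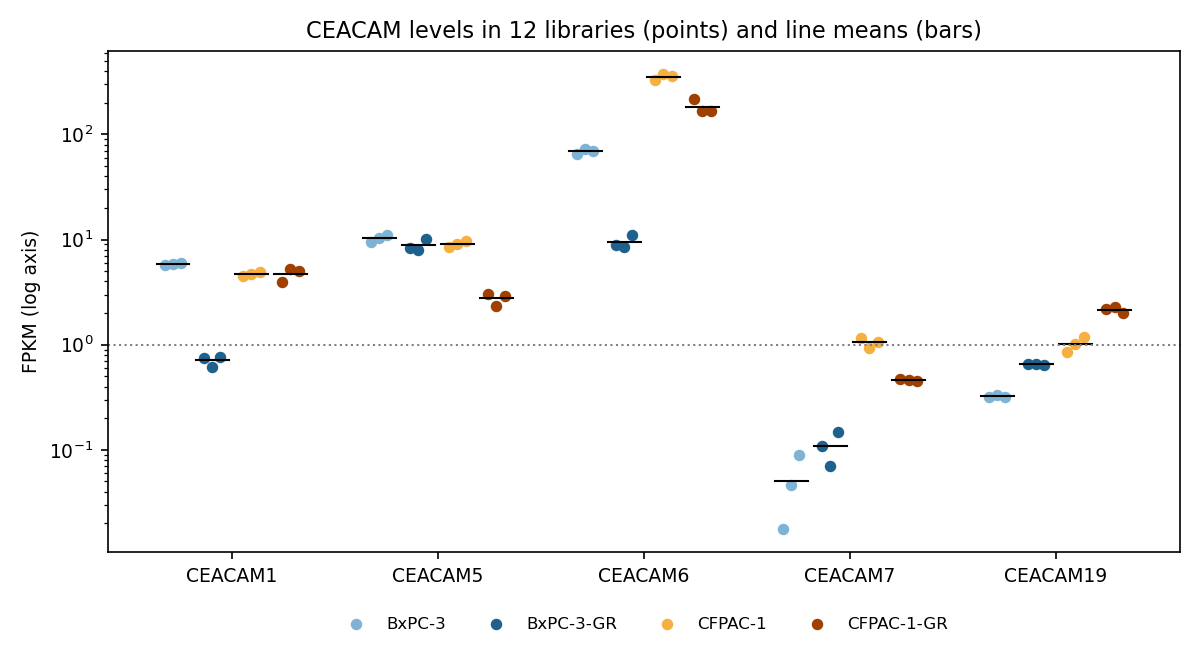
FPKM of the 5 CEACAM genes (log axis) in each of the 12 libraries (points), colored by line, with the mean of each line as a bar and a dotted line at 1 FPKM. CEACAM6 is the highest gene in every library, CEACAM1 drops in BxPC-3-GR, CEACAM5 drops in CFPAC-1-GR, and CEACAM7 lies near or below 1 FPKM in every library and CEACAM19 below 1 FPKM in the BxPC-3 lines.

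To ask which members differed between a resistant line and its parental line, log2(FPKM + 1) was tested with limma over every gene that averaged 1 FPKM or more across the 6 libraries of the comparison. A gene was called significantly differentially expressed (SDE) if its p, adjusted by Benjamini-Hochberg over those genes, was under 0.05 and its log2FC exceeded 1 in size, the criteria of the study. A pseudocount of 1 understates the log2FC of low genes, so the fold between mean FPKM is also given. An exact 2-sided permutation test cannot give a p below 0.10 for 1 gene at this size, and the adjusted p-values below rest on the spread that limma pools over genes. Comparisons that share a line share its 3 libraries.

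In BxPC-3-GR, CEACAM1 and CEACAM6 fell several-fold while CEACAM5 passed neither criterion. These 2 were SDE among the 3 members tested, where 7.76% of all 11710 genes tested were SDE and 3.62% were SDE and lower. CEACAM7 and CEACAM19, below the minimum mean, were not tested.

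CEACAM1, the member with inhibitory motifs, was at 5.79, 5.89 and 5.99 FPKM in the BxPC-3 libraries and at 0.746, 0.609 and 0.769 FPKM in the BxPC-3-GR libraries. The groups did not overlap, and every BxPC-3-GR library lay below 1 FPKM. The mean was 8.31-fold lower in BxPC-3-GR, with a log2FC of -2.01 (SE 0.0558, adjusted p = 3.6e-06). With a pseudocount of 0.1 the log2FC was -2.89. CEACAM1 overlaps LIPE-AS1, an antisense gene, by 185 exonic bases. LIPE-AS1 was itself at 0.282 ± 0.0215 FPKM in BxPC-3 and 0.0481 ± 0.00786 FPKM in BxPC-3-GR, far below CEACAM1. Use of strand in the counting is not given in the sources used here, and reads of such pairs cannot be told apart without it.

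CEACAM6, a GPI-anchored member, was at 65.1, 72.1 and 69.9 FPKM in BxPC-3 and at 8.84, 8.55 and 11.04 FPKM in BxPC-3-GR. The groups stood well apart, and the lowest parental library was several times the highest resistant one. The mean was 7.28-fold lower in BxPC-3-GR, with a log2FC of -2.75 (SE 0.101, adjusted p = 9.2e-06).

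CEACAM5, its GPI-anchored neighbor, was at 9.53, 10.3 and 11.004 FPKM in BxPC-3 and at 8.31, 7.96 and 10.1 FPKM in BxPC-3-GR. The groups overlapped, since the third BxPC-3-GR library lay above the first BxPC-3 library. The log2FC was -0.21 with a 95% interval from -0.45 to 0.03 (adjusted p = 0.12), an interval that does not reach the SDE criterion of 1 in either direction. Without the third BxPC-3-GR library it was -0.30 (adjusted p = 0.023 by limma), still short of that criterion. The ratio of CEACAM6 to CEACAM5 thus went from 6.74 ± 0.347 in BxPC-3 to 1.08 ± 0.0143 in BxPC-3-GR, where the 3 libraries lay between 1.06 and 1.09.

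CEACAM7 was barely detected in the BxPC-3 lines, at 0.0175, 0.0464 and 0.0889 FPKM in BxPC-3 and at 0.108, 0.0703 and 0.147 FPKM in BxPC-3-GR. The groups overlapped, and if the lowest of these values stands for 1 fragment, they correspond to about 1, 3 and 5 fragments against 9, 5 and 12. A difference was not detectable at this depth. CEACAM19 was at 0.316, 0.329 and 0.321 FPKM in BxPC-3 and at 0.653, 0.657 and 0.636 FPKM in BxPC-3-GR. Its groups did not overlap, and the mean was 2.02-fold higher in BxPC-3-GR. Groups without overlap were found for 66.1% of all genes tested in this comparison. Without the minimum mean, the log2FC of CEACAM19 was 0.32 (SE 0.0212, adjusted p = 0.00036 by limma), short of the SDE criterion. CEACAM19 overlaps PVR, a poliovirus receptor gene on the same strand, by 121 exonic bases, and PVR moved the other way in mean, from 14.7 ± 1.22 to 8.99 ± 2.59 FPKM.

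In CFPAC-1-GR, CEACAM5 and CEACAM6 were lower than in CFPAC-1, CEACAM19 was higher and CEACAM1 showed no shift. Of the 4 members tested, CEACAM5 alone was SDE, where 32.2% of 12051 genes tested were SDE and 11.7% were SDE and lower. Of these 4 members, 3 had an adjusted p below 0.05, against 79.6% of all genes tested, so neither count sets the members apart from the background.

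CEACAM5 was at 8.42, 9.02 and 9.76 FPKM in CFPAC-1 and at 3.03, 2.36 and 2.89 FPKM in CFPAC-1-GR. The groups were clear of each other. The mean was 3.28-fold lower in CFPAC-1-GR, with a log2FC of -1.42 (SE 0.0954, adjusted p = 1.5e-05).

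CEACAM6 was at 331, 380 and 357 FPKM in CFPAC-1 and at 216, 166 and 167 FPKM in CFPAC-1-GR. The groups did not overlap, and the first CFPAC-1-GR library was the highest of its group. The mean was 1.94-fold lower, with a log2FC of -0.96 (SE 0.120, adjusted p = 0.00026), which lies just short of the SDE criterion of 1. Without the first CFPAC-1-GR library the log2FC was -1.09 and without the first CFPAC-1 library it was -1.02, and CEACAM6 was then SDE. Both of these GPI-anchored members fell in CFPAC-1-GR, and the ratio of CEACAM6 to CEACAM5 went from 39.3 ± 2.76 to 66.5 ± 7.50, without overlap of the libraries. The ratio was not corrected for GC content. With the correction for GC content and length given below, the log2FC was -1.29 for CEACAM6 and -1.45 for CEACAM5. These values lie closer together than -0.96 and -1.42 as reported, so the size of the rise in the ratio depends on that correction.

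CEACAM1 was at 4.51, 4.73 and 4.88 FPKM in CFPAC-1 and at 3.94, 5.25 and 5.03 FPKM in CFPAC-1-GR. The resistant libraries lay on both sides of the parental ones. The log2FC was 0.00 with a 95% interval from -0.24 to 0.25 (adjusted p = 0.98).

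CEACAM19 was at 0.847, 1.01 and 1.19 FPKM in CFPAC-1 and at 2.16, 2.26 and 2.01 FPKM in CFPAC-1-GR. The groups did not overlap, as for 82.1% of all genes tested. The mean was 2.11-fold higher in CFPAC-1-GR, with a log2FC of 0.64 (SE 0.0836, adjusted p = 0.00032), below the SDE criterion. With a pseudocount of 0.1 the log2FC was 1.02 and CEACAM19 was SDE.

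CEACAM7 was at 1.16, 0.938 and 1.06 FPKM in CFPAC-1 and at 0.473, 0.461 and 0.449 FPKM in CFPAC-1-GR, or about 74, 39 and 45 fragments against 34, 26 and 23 on the same scale as above. Every resistant library lay below every parental one. The mean was 2.28-fold lower, but the mean of the 6 libraries was under 1 FPKM and the gene was not tested. With a minimum mean and a pseudocount of 0.1 its log2FC was -1.04 (SE 0.103, adjusted p = 0.00041 by limma), past both criteria.

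**Figure D2:**
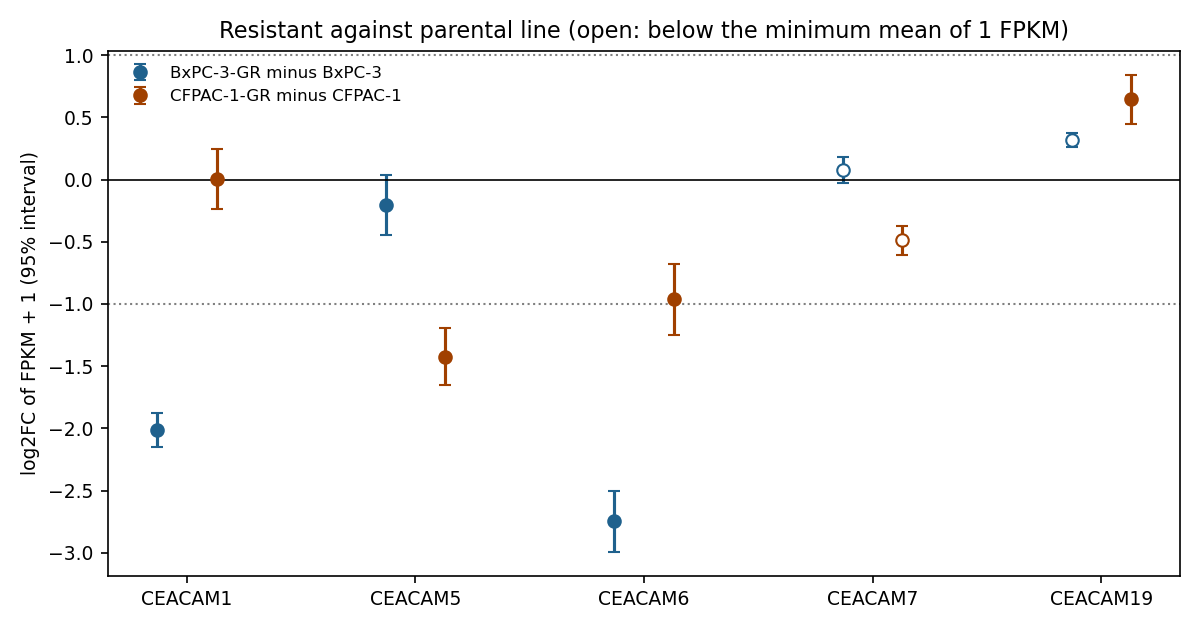
Difference of log2(FPKM + 1) between each resistant line and its parental line for the 5 genes, with 95% intervals from limma; filled points were tested and open points lay under the minimum mean of 1 FPKM (their intervals come from the fit without it). Dotted lines mark the SDE criterion of 1. CEACAM1 sits at -2.01 in BxPC-3-GR and at 0.00 in CFPAC-1-GR, and CEACAM5 at -0.21 and -1.42.

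The log2FC of all genes in CFPAC-1-GR moved with their GC content. Across 12030 genes, which are not independent replicates, the Spearman correlation of GC content with log2FC was -0.777, against 0.0388 across 11685 genes in BxPC-3-GR. Genes within 1 percentage point of the GC content of CEACAM1 (47.2%) had a median log2FC of 0.36 in CFPAC-1-GR, and those near CEACAM6 (46.3%) a median of 0.45. The median was 0.13 near CEACAM5 (49.5%) and -0.37 near CEACAM19 (54.2%). Beside these medians, the log2FC was lower than that of genes of like GC content for CEACAM1, CEACAM5 and CEACAM6 and higher for CEACAM19. After a spline on GC content and length was taken out, the log2FC in CFPAC-1-GR was -0.38 for CEACAM1 (adjusted p = 0.016 by limma), -1.45 for CEACAM5, -1.29 for CEACAM6, now SDE, and 0.92 for CEACAM19. Under median-of-ratios scaling, which moved the median log2FC of all genes from 0.13 to -0.14, CEACAM1 was at -0.26 (adjusted p = 0.043 by limma), CEACAM6 was at -1.28 and SDE, CEACAM5 was at -1.68 and CEACAM19 at 0.45. That scaling also turned the share of SDE genes that were higher in CFPAC-1-GR from 63.74% to 41.88%. The cause of the GC trend was not tested.

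**Figure D3:**
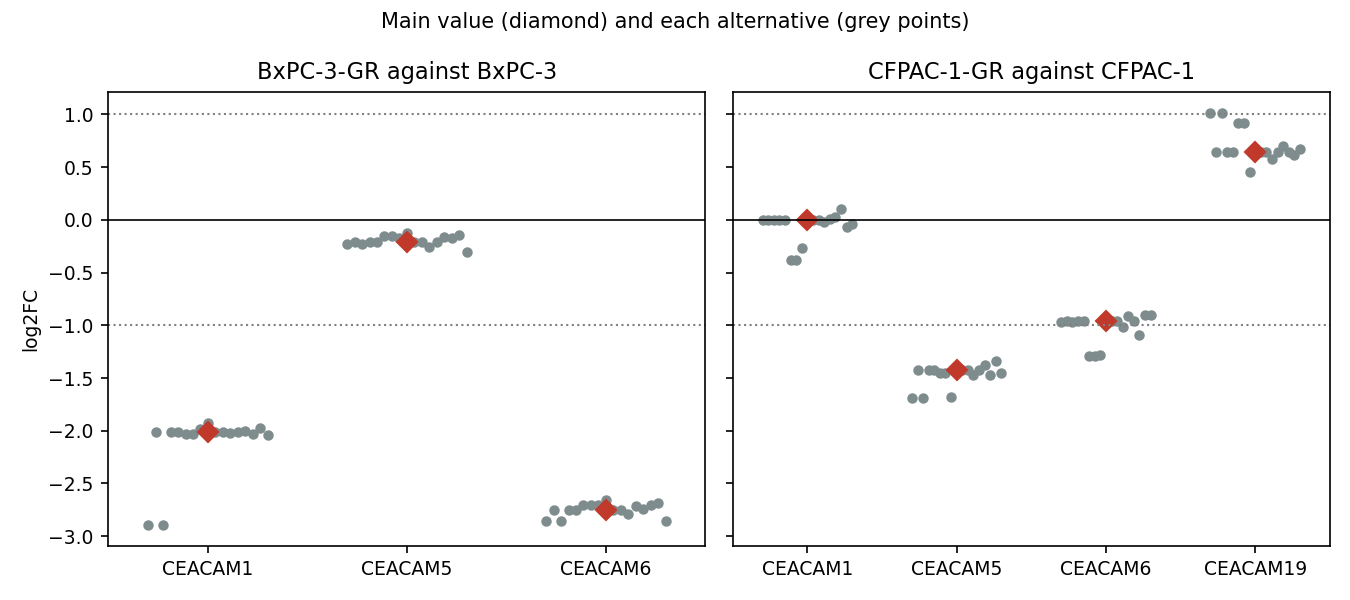
The log2FC of the tested genes in each resistant against parental comparison, as reported (diamond) and under each alternative setting (grey points); dotted lines mark 1 and -1. In the BxPC-3 lines the points of each gene keep to one side of 0, while in the CFPAC-1 lines CEACAM1 lies on both sides of 0 and CEACAM6 on both sides of -1.

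To ask whether a gene's response differed between the lines, the interaction of line and resistance was fitted over all 12 libraries and 12210 genes, with the response in CFPAC-1-GR minus that in BxPC-3-GR as its term. CEACAM1, CEACAM5 and CEACAM6 differed by both criteria, 3 of 4 members tested, where 38% of all genes did. All 4 had an adjusted p below 0.05, as did 76.6% of all genes. Of these 4, CEACAM19 reached the minimum mean over the 12 libraries only through the CFPAC-1 lines, with 0.322 FPKM in BxPC-3 and 0.649 FPKM in BxPC-3-GR. The term was 2.01 for CEACAM1 (SE 0.117, adjusted p = 6.8e-08) and 1.78 for CEACAM6 (SE 0.165, adjusted p = 2.2e-06), with the lower response in BxPC-3-GR for each. For CEACAM5 it was -1.22 (SE 0.141, adjusted p = 1.3e-05), with the lower response in CFPAC-1-GR. In a limma test of whether the term exceeds 1, CEACAM5 had an adjusted p of 0.28. For CEACAM19 the term was 0.32 (SE 0.0897, adjusted p = 0.0066), under the criterion of 1. It was 0.19 with a pseudocount of 0.1 (adjusted p = 0.24 by limma, or 0.3 with the minimum mean of 0.1 as well) and 0.12 under median-of-ratios scaling (adjusted p = 0.24), so that its difference between the lines rests on these choices. The terms of CEACAM5 and CEACAM6 thus had opposite signs, while both genes were lower in CFPAC-1-GR than in CFPAC-1.

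**Figure D4:**
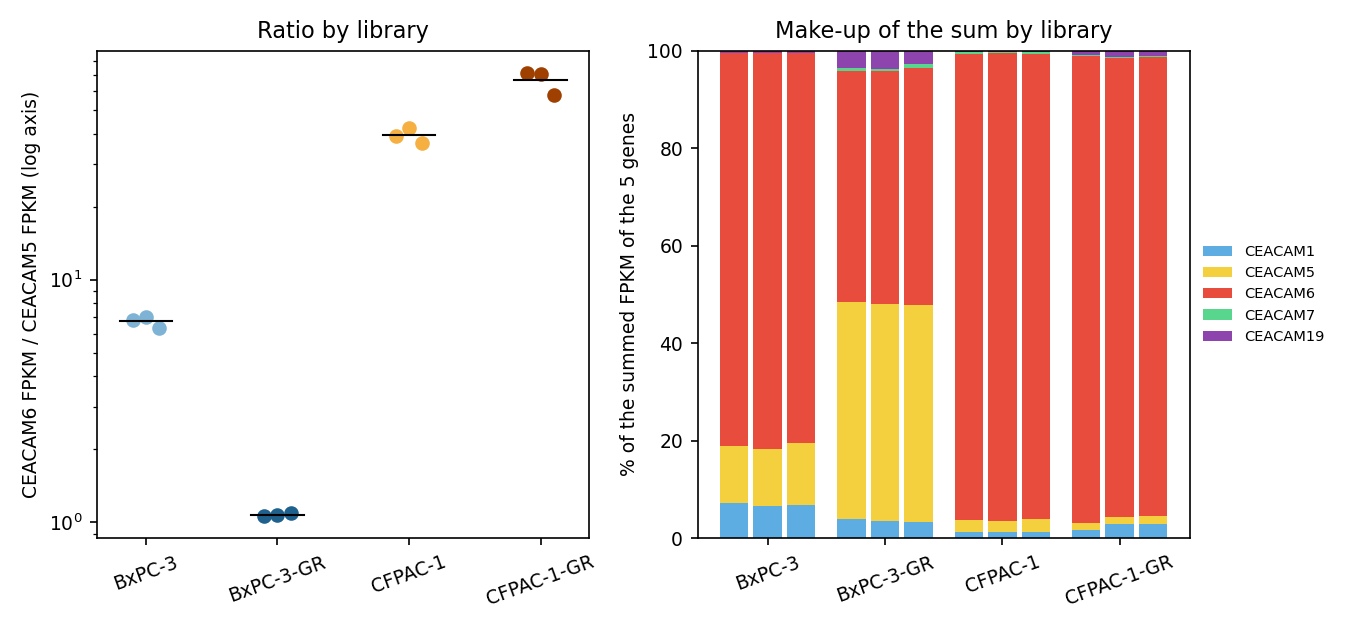
Left, the ratio of CEACAM6 FPKM to CEACAM5 FPKM in each library (points, log axis) with the mean of each line (bar), without correction for GC content. Right, the percentage that each gene makes up of the summed FPKM of the 5 genes in each library; the ratio is near 1 in the 3 BxPC-3-GR libraries, where CEACAM5 fills 44.5% of the sum, and highest in CFPAC-1-GR.

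The parental lines already differed in this family. CEACAM6 was 5.16-fold higher in CFPAC-1 than in BxPC-3 (log2FC of BxPC-3 against CFPAC-1 -2.35, SE 0.0736, adjusted p = 4.3e-07), the 1 SDE gene of 3 members tested, where 44.5% of 11842 genes were SDE. CEACAM1 was slightly higher in BxPC-3 (log2FC 0.27, SE 0.0520, adjusted p = 0.0024), a difference that the correction for GC content and length brought to -0.0058. GC content had a Spearman correlation of -0.628 with log2FC across 11821 genes here. For CEACAM5 the log2FC was 0.16 with a 95% interval from -0.02 to 0.35 (adjusted p = 0.09). With the same correction it was 0.32 (adjusted p = 0.0084 by limma), and under median-of-ratios scaling 0.00044. Whether CEACAM5 differed between the parental lines thus depended on the setting. CEACAM7 and CEACAM19, not tested, had means 20.7-fold and 3.16-fold higher in CFPAC-1, without overlap of the libraries, as for 85.6% of all genes tested.

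Between the resistant lines, CEACAM6 was 19.3-fold higher in CFPAC-1-GR (log2FC of BxPC-3-GR against CFPAC-1-GR -4.13, SE 0.138, adjusted p = 1.1e-06) and CEACAM1 was 6.69-fold higher (log2FC -1.74, SE 0.103, adjusted p = 1.4e-05). CEACAM5 was 3.18-fold higher in BxPC-3-GR (log2FC 1.38, SE 0.112, adjusted p = 5.8e-05). In all, 3 of the 4 members tested were SDE, where 17.1% of 12330 genes were. Of these 4, CEACAM19 reached the minimum mean only through CFPAC-1-GR (2.15 FPKM, against 0.649 FPKM in BxPC-3-GR). CEACAM19 was 3.31-fold higher in CFPAC-1-GR with a log2FC of -0.93 (SE 0.0593, adjusted p = 1.9e-05), under the criterion of 1. With a pseudocount of 0.1 its log2FC was -1.58 (adjusted p = 8.4e-06 by limma) and all 4 were SDE. The mean of CEACAM7, not tested, was 4.25-fold higher in CFPAC-1-GR.

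With the 4 lines in 1 fit, CEACAM6 was ordered CFPAC-1, CFPAC-1-GR, BxPC-3 and BxPC-3-GR from high to low, and each step passed the test (adjusted p from 1.8e-08 to 1.4e-05). CEACAM19 ran CFPAC-1-GR, CFPAC-1, BxPC-3-GR and BxPC-3, also with every step past the test (adjusted p from 2.5e-06 to 0.0014). It reached the minimum mean of 1 FPKM over the 12 libraries only through the CFPAC-1 lines. Its means of 0.322 FPKM in BxPC-3 and 0.649 FPKM in BxPC-3-GR lay below that minimum, and that pair was not tested on its own. For CEACAM1, BxPC-3 led CFPAC-1-GR (adjusted p = 0.013), CFPAC-1-GR and CFPAC-1 did not differ beyond their spread (adjusted p = 0.98), and BxPC-3-GR was last (adjusted p = 4.4e-09). Under upper-quartile scaling the first of these steps had an adjusted p of 0.2, and under median-of-ratios scaling CFPAC-1 lay above CFPAC-1-GR (adjusted p = 0.011). For CEACAM5, BxPC-3, CFPAC-1 and BxPC-3-GR were not told apart as neighbors (adjusted p = 0.15 and 0.68), and CFPAC-1-GR was last (adjusted p = 3.4e-07). CEACAM7 ran CFPAC-1, CFPAC-1-GR, BxPC-3-GR and BxPC-3 with no test, and the last pair overlapped. In all, 9 of 12 tested steps between neighbors passed, including those of CEACAM19 with the limit given above. By the same test, 55% of all genes differed between BxPC-3 and BxPC-3-GR, 81.2% between CFPAC-1 and CFPAC-1-GR, 84.7% between BxPC-3 and CFPAC-1, 69.5% between BxPC-3 and CFPAC-1-GR, 84.3% between BxPC-3-GR and CFPAC-1 and 66.9% between BxPC-3-GR and CFPAC-1-GR.

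CEACAM transcripts are similar in sequence, and reads from a shared stretch may be credited to either gene. In GENCODE 29, 2.62% of the 50-base stretches of CEACAM1 transcripts, 2.64% of those of CEACAM5 and 4.06% of those of CEACAM6 also occur in another CEACAM gene, and 0% of those of CEACAM7 and CEACAM19. AC243967.1, a gene model that runs across both CEACAM5 and CEACAM6 on their strand, holds 15.2% of the 50-base stretches of CEACAM5 and 3.73% of those of CEACAM6. It was at 1.27 ± 0.288 FPKM in BxPC-3, 0.425 ± 0.0445 in BxPC-3-GR, 7.16 ± 1.40 in CFPAC-1 and 3.88 ± 0.917 in CFPAC-1-GR, an order of lines that is that of CEACAM6 and not that of CEACAM5. In CFPAC-1-GR its mean of 3.88 FPKM lay above that of CEACAM5, 2.76 FPKM. How the counting divided reads among these genes is not given in the sources used here, so the CEACAM5 level is uncertain to that extent. The same holds for the log2FC of CEACAM5, its interaction term and the ratio of CEACAM6 to CEACAM5.

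The genes whose log2(FPKM + 1) was most like that of a member over the 12 libraries were sought among 12210 genes. For CEACAM6 they were HIST1H2BD (Pearson r = 0.993), TCN1 (0.992), which encodes a vitamin B12 binding protein, and ACSL5 (0.991), which encodes a fatty acid CoA ligase. TCN1 was at 7.15, 0.923, 47.8 and 24.6 FPKM in the mean of BxPC-3, its resistant line, CFPAC-1 and its resistant line. For CEACAM1 they were AC018629.1 (0.982), DIP2C (0.974) and CDK11B (0.968), and DIP2C was at 1.71, 0.178, 1.77 and 1.90 FPKM in the same order. For CEACAM5 they included USP19 (0.975) and MIDN (0.968). For CEACAM19 they were SH3RF1 (0.992), RNF149 (0.991) and TBC1D3E (0.989). The 12 libraries form 4 lines, so these values mainly describe likeness of 4 line means.

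Genes that act with the CEACAM proteins, or are of like kind, were read from 4 lists, beside a background of 4.14% of all genes SDE and higher and 3.62% SDE and lower in BxPC-3-GR, and of 20.5% and 11.7% in CFPAC-1-GR. All 12 intracellular partners of CEACAM1 were tested. In BxPC-3-GR 1 of them was SDE and higher and 0 lower, with a median log2FC of -0.27 against -0.05 over all genes tested. That gene was LYN, an SRC-family kinase, which rose from 7.95 ± 0.239 to 22.3 ± 0.894 FPKM. In CFPAC-1-GR 2 were higher and 2 lower, with a median of -0.15 against 0.13. PTPN11, the phosphatase SHP2 that binds the inhibitory motifs, rose from 8.31 ± 0.431 to 40.1 ± 4.29 FPKM, while S100A10 fell from 272 ± 63.4 to 97.6 ± 47.8 FPKM and FLNA, filamin A, from 295 ± 19.1 to 115 ± 6.48 FPKM. With the correction for GC content and length, 1 was higher and 0 lower. PTPN11 was then at a log2FC of 1.13 and SDE, and S100A10 was at -0.86 (adjusted p = 0.064 by limma) and FLNA at -0.79.

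Of 28 genes that make, attach or remodel the GPI anchor of CEACAM5, CEACAM6 and CEACAM7, 16 were tested in BxPC-3-GR, where 1 was SDE and higher and 0 lower (median log2FC -0.02). It was PGAP2, a factor in remodelling the anchor's lipid, which rose from 0.565 ± 0.0515 to 3.07 ± 0.198 FPKM. In CFPAC-1-GR 20 were tested, and 2 were higher and 4 lower (median 0.0045). PIGK, the catalytic subunit of the GPI transamidase, rose from 3.54 ± 0.246 to 15.0 ± 1.47 FPKM, and GPAA1, another subunit of that enzyme, fell from 19.5 ± 1.62 to 5.13 ± 0.448 FPKM. DPM3, a subunit of the dolichol-phosphate mannose synthase, fell from 19.2 ± 1.87 to 6.04 ± 1.35 FPKM. With the correction, 1 was higher and 1 lower, and none of these 3 was SDE, with PIGK at a log2FC of 0.53, GPAA1 at -0.81 and DPM3 at -0.60.

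Of 24 other immunoglobulin-superfamily and epithelial adhesion molecules, 16 were tested in each line. In BxPC-3-GR 4 were SDE and higher and 0 lower (median log2FC 0.28), unlike CEACAM1 and CEACAM6. ICAM1, a ligand of leukocyte integrins, rose from 10.4 ± 0.271 to 47.6 ± 0.501 FPKM, MCAM, a melanoma cell adhesion molecule, from 0.149 ± 0.0325 to 3.64 ± 0.427 FPKM and NECTIN4, a nectin of adherens junctions, from 2.26 ± 0.193 to 7.94 ± 0.535 FPKM. MCAM was among the genes that the study selected on these samples, so its direction is not independent evidence. In CFPAC-1-GR 5 were higher and 2 lower (median 0.50). ALCAM, a ligand of CD6, rose from 12.7 ± 0.828 to 46.9 ± 8.24 FPKM, CXADR, a receptor of adenoviruses at tight junctions, from 1.20 ± 0.00502 to 6.52 ± 0.724 FPKM and NECTIN3 from 0.943 ± 0.0270 to 4.60 ± 0.558 FPKM. With the correction, 3 were higher and 0 lower, and ALCAM at a log2FC of 0.57, CXADR at 0.58 and NECTIN3 at 0.31 were not SDE.

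Of 6 transcription factors described for CEACAM1 or CEACAM5 promoters, all were tested and 0 were SDE in BxPC-3-GR by limma, where 4 had an adjusted p below 0.05, as did 57.7% of all genes (median log2FC 0.23). In CFPAC-1-GR 2 were SDE and higher and 0 lower (median -0.29). SP3, which binds GC boxes, rose from 1.45 ± 0.166 to 8.02 ± 0.693 FPKM and SP1 from 9.37 ± 0.512 to 22.4 ± 1.49 FPKM. With the correction, 0 of the 6 were SDE, with SP3 at a log2FC of 0.52 (adjusted p = 0.0025 by limma) and SP1 at 0.40 (adjusted p = 0.0046). Under median-of-ratios scaling 1 of the 6 was SDE and higher and 1 lower in CFPAC-1-GR. As reported, USF2 was lower but not SDE, at a log2FC of -0.51 in BxPC-3-GR (adjusted p = 0.00055 by limma) and -0.96 in CFPAC-1-GR (adjusted p = 1.6e-05). For USF1 the log2FC was 0.02 in BxPC-3-GR (adjusted p = 0.86) and -0.54 in CFPAC-1-GR (adjusted p = 0.0044). In BxPC-3-GR the correction left the counts of all 4 lists as given.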

How the data were processed

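RNA from 4 cell lines with 3 libraries each was analysed. The authors deposited FPKM values for 58302 genes, made with GRCh38 and Ensembl release 91 per the paper's methods. The submitters' processing notes also name Trimmomatic 0.27, FastQC 0.10.1, TopHat2 2.0.8 and hg19, and the counting program is not given in the sources used here. The authors named DESeq2, which needs counts; only 60.2% to 70.9% of low values lay within 0.05 of a whole multiple of 1 implied fragment, so no count test was run.

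Comparisons used limma 3.58.1 (R 4.3.3) on log2(FPKM + 1) with a minimum mean of 1 FPKM and no block. The method was tested on simulated data with large changes in well expressed genes only. Low members and changes near the SDE criterion were not covered by that test. Gene models came from GENCODE 29 (58039 genes matched) and windows from RefSeq, aligned with Biopython 1.88. Members and lists were chosen with earlier results of these data known. Named genes were the members, other CEACAM genes and the 3 most alike genes per member. Up to 3 SDE genes of largest log2FC were named per list and resistant line. VIM, PTPRC, USF1, USF2 and overlapping genes were named beside values they touch. Of the genes most like CEACAM5, 1 is not reported here. Alternatives were another pseudocount or minimum, 1 fit of all libraries, the replicate block, a GC content and length correction, other scalings, a mean-trended prior, a test against a log2FC of 1, and leaving out each library.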

Additional observations from a re-analysis of the deposited data

Results flagged for a closer look

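For 4 genes limma's interaction term over 12 libraries had an adjusted p below 0.05, with Benjamini-Hochberg adjustment over all genes tested. For CEACAM1, CEACAM5 and CEACAM6 the difference between a resistant line and its parental line was itself different in the CFPAC-1 and BxPC-3 lines. For CEACAM19, which reached the minimum mean only through the CFPAC-1 lines, that reading depended on the pseudocount and the scaling. The response in CFPAC-1-GR minus that in BxPC-3-GR was 2.01 for CEACAM1 (adjusted p = 6.8e-08), 1.78 for CEACAM6 (adjusted p = 2.2e-06), -1.22 for CEACAM5 (adjusted p = 1.3e-05) and 0.32 for CEACAM19 (adjusted p = 0.0066) on the log2 scale. For CEACAM19 the adjusted p was 0.24 with a pseudocount of 0.1 and under median-of-ratios scaling, and the mean was 2.02-fold higher in BxPC-3-GR and 2.11-fold higher in CFPAC-1-GR. An adjusted p below 0.05 was found for 76.6% of all genes tested in this way. Groups of 3 libraries were too small for a test of single libraries that stand apart.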

How the results depend on the processing

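The count of SDE members was 2 in BxPC-3-GR under every alternative. In CFPAC-1-GR it was 1 as reported and 2 with a pseudocount of 0.1 (CEACAM19), with the GC content and length correction, with the replicate block and that correction, and with median-of-ratios scaling (CEACAM6). It was 3 with a minimum mean and pseudocount of 0.1 together, and 1 to 2 when a library was left out. With that minimum and pseudocount the count went from 1 to 3 for BxPC-3 against CFPAC-1 and from 3 to 5 for BxPC-3-GR against CFPAC-1-GR, where a pseudocount of 0.1 alone gave 4. The interaction of CEACAM19, 0.32 as reported, was 0.19 with a pseudocount of 0.1 and 0.12 under median-of-ratios scaling (adjusted p = 0.24 for each), and 0.60 with the correction, and it fell under the minimum mean when a CFPAC-1-GR library was left out. CEACAM1 in CFPAC-1-GR, at 0.00 as reported, was -0.38 with the correction (with or without the block), -0.26 under median-of-ratios scaling, -0.02 without CFPAC-1 replicate 1, -0.04 without CFPAC-1-GR replicate 3 and from -0.063 to 0.11 over all libraries left out in turn, lowest without CFPAC-1-GR replicate 2. CEACAM1 in BxPC-3 against CFPAC-1 was -0.0058 with the correction, with or without the block. The cause was not tested. Tested against a log2FC of 1, CEACAM5 between the resistant lines had an adjusted p of 0.061. The replicate block alone changed no call of a member and gave 908 SDE genes against 909 in BxPC-3-GR, and 3883 against 3880 in CFPAC-1-GR. Same-numbered libraries did not deviate together (correlations from -0.143 to 0.0959), so the numbers were not taken as pairs. Over all genes, SDE counts in BxPC-3-GR were 1429 with a pseudocount of 0.1, 2665 with the minimum of 0.1 as well and 380 when tested against 1; in CFPAC-1-GR they were 8320 with that minimum and pseudocount, 2059 when tested against 1 and 1045 with the correction, of which 598 were also among the 3880. Recomputing the gene lists under other scalings and the correction was chosen after seeing the data. Depth limits CEACAM7 most, with about 1 to 12 fragments per BxPC-3 or BxPC-3-GR library.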
